A study of Mus musculus with 10 samples.

Results

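The SIBLING proteins (small integrin-binding ligand, N-linked glycoproteins) and their partners in phosphate control were described here in femurs of mice after 24 h of hindlimb unloading. The genes were Dmp1, Mepe, Ibsp, Spp1 and Dspp, which make up the SIBLING family, with Phex and Fgf23, which act beside them in phosphate handling. Every gene probe named for one of these 7 genes, or carrying one of their transcript accessions, was taken, which gave 8 of 41174 gene probes and 7 of 27670 gene names on the array. Each gene had 1 probe, except Fgf23 with 2.

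Femurs came from 10 male ICR mice aged 6 months, an outbred strain, with 1 animal per array. The 5 controls moved freely in their cages, and the 5 unloaded animals hung by the tail, head down, for 24 h so that the hind legs bore no weight. All animals were housed singly, and femurs went into RNAlater after excision. The labels name femur bone and do not say whether marrow or the growth plate was removed.

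SIBLING proteins are acidic, phosphorylated proteins of mineralized matrix that bind integrins through an RGD motif. Phex is a membrane endopeptidase that degrades mineralization-inhibiting peptides released from SIBLING proteins, and loss of either Phex or Dmp1 raises Fgf23, the bone hormone that makes the kidney waste phosphate. In bone, Dmp1, Mepe and Phex mark cells embedding or embedded in matrix, Ibsp and Spp1 mark osteoblasts as well, and Dspp is best known from dentin.

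The 5 SIBLING genes lie side by side on mouse chromosome 5, in the order Dspp, Dmp1, Ibsp, Mepe and Spp1, with no other protein-coding gene listed between them by RefSeq (GRCm38.p6). Sparcl1 flanks them on the Dspp side and Pkd2 on the Spp1 side. Phex lies on chromosome X and Fgf23 on chromosome 6. RefSeq windows of the 250 bases before a transcript start were matched for 6 of the 7 genes, 8 windows in all. Dspp had no window and was not searched. The windows of Mepe, Dmp1 (second start), Ibsp and Spp1 (first start) are shown because they are the chromosome 5 members whose window held the letters ATTGG, which read CCAAT on the other strand, close to the start. They lie on the plus strand of GRCm38.p6, at chr5:104325079-104325328, chr5:104202367-104202616, chr5:104299037-104299286 and chr5:104434861-104435110, and each reads 5′ to 3′ up to the last base before the start. Capitals mark every match, on either strand, to CCAAT or its reverse complement ATTGG, to the palindrome TTTAAA, or to the Runx word ACCACA or its reverse complement TGTGGT, which do not overlap each other here and were picked after the sequences had been looked at.
Mepe: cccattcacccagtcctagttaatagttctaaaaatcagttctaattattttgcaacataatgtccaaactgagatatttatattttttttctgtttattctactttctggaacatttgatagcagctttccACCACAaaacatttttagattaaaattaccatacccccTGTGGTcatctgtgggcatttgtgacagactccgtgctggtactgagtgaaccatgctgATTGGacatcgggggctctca
Dmp1: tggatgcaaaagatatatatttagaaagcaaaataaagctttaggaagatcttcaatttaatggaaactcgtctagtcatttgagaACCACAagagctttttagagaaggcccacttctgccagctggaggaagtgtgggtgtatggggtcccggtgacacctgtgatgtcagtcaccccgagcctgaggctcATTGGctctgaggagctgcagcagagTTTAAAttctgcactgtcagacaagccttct
Ibsp: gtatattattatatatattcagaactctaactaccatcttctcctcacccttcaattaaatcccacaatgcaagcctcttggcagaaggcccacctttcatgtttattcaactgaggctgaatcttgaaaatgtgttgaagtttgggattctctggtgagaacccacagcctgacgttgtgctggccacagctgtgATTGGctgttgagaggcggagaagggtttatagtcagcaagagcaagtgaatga
Spp1: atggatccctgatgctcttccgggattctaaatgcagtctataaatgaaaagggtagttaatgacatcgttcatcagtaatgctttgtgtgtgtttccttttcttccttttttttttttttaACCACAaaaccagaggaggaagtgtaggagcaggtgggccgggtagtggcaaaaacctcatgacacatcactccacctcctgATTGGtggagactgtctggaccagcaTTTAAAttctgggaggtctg

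ATTGG began at -21 from the start in Mepe, at -57 in Dmp1, at -54 in Ibsp and at -46 in Spp1. The first start of Dmp1 had it at -101. CCAAT in either orientation was in 5 of the 8 member windows and in 33.8% of all 32851 windows of this length. TTTAAA, which resembles the core of a TATA box, was at -31 in Dmp1, -20 in Spp1, -56 in Phex and -27 in Fgf23, which is 4 of 8 windows against 12.1% of all windows. ACCACA, a spelling of the motif of Runx transcription factors, began at -118 and, reversed, at -80 in Mepe, at -164 in Dmp1 and at -128 in Spp1, which is 3 of 8 windows against 14.0%. A match describes the letters of the window and was not tested for binding.

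Signals are given as log2 of the processed spot signal minus the log2 75th percentile of the array, so a value of 0 is the level that 75% of an array's probes do not exceed. Differences are unloaded minus control. Percentiles ranged from 637 to 903 intensity units, and the share of spots called well above background was 89.8% to 95.5%. The arrays lay on 3 slides, with controls 1 to 4 on slide 1, control 5 and unloaded animals 1 to 3 on slide 2, and unloaded animals 4 and 5 on slide 3. Unloaded animal 5 stood apart, with a median correlation to the other arrays of 0.975 against 0.985 to 0.987 for the rest.

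None of the 8 member probes passed an adjusted p below 0.05 in limma, where 1 of 38629 tested probes (0.00259%) did, Ddit4, a stress-induced mTOR inhibitor. One member probe, that of Mepe, had an unadjusted p below 0.05, a share to be read against 16.1% of all probes, 10.2% with higher and 5.92% with lower signal after unloading. All 8 member differences were positive, as were 62.6% of all probes, whose median difference was 0.07. That share rests on the scaling: with median scaling 43.9% of all probes and 5 of the 8 member probes were positive, with quantile normalization 52.7% and 6 of 8, and with normexp background correction 58.1% and 7 of 8. The split at an unadjusted p below 0.05 turned as well, from 3939 probes higher and 2286 lower to 1386 and 4474 with median scaling, 2095 and 2938 with quantile normalization and 1364 and 1866 with normexp. A femur holds many cell types, so fewer cells of a type and less RNA per cell cannot be told apart.

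**Figure D1:**
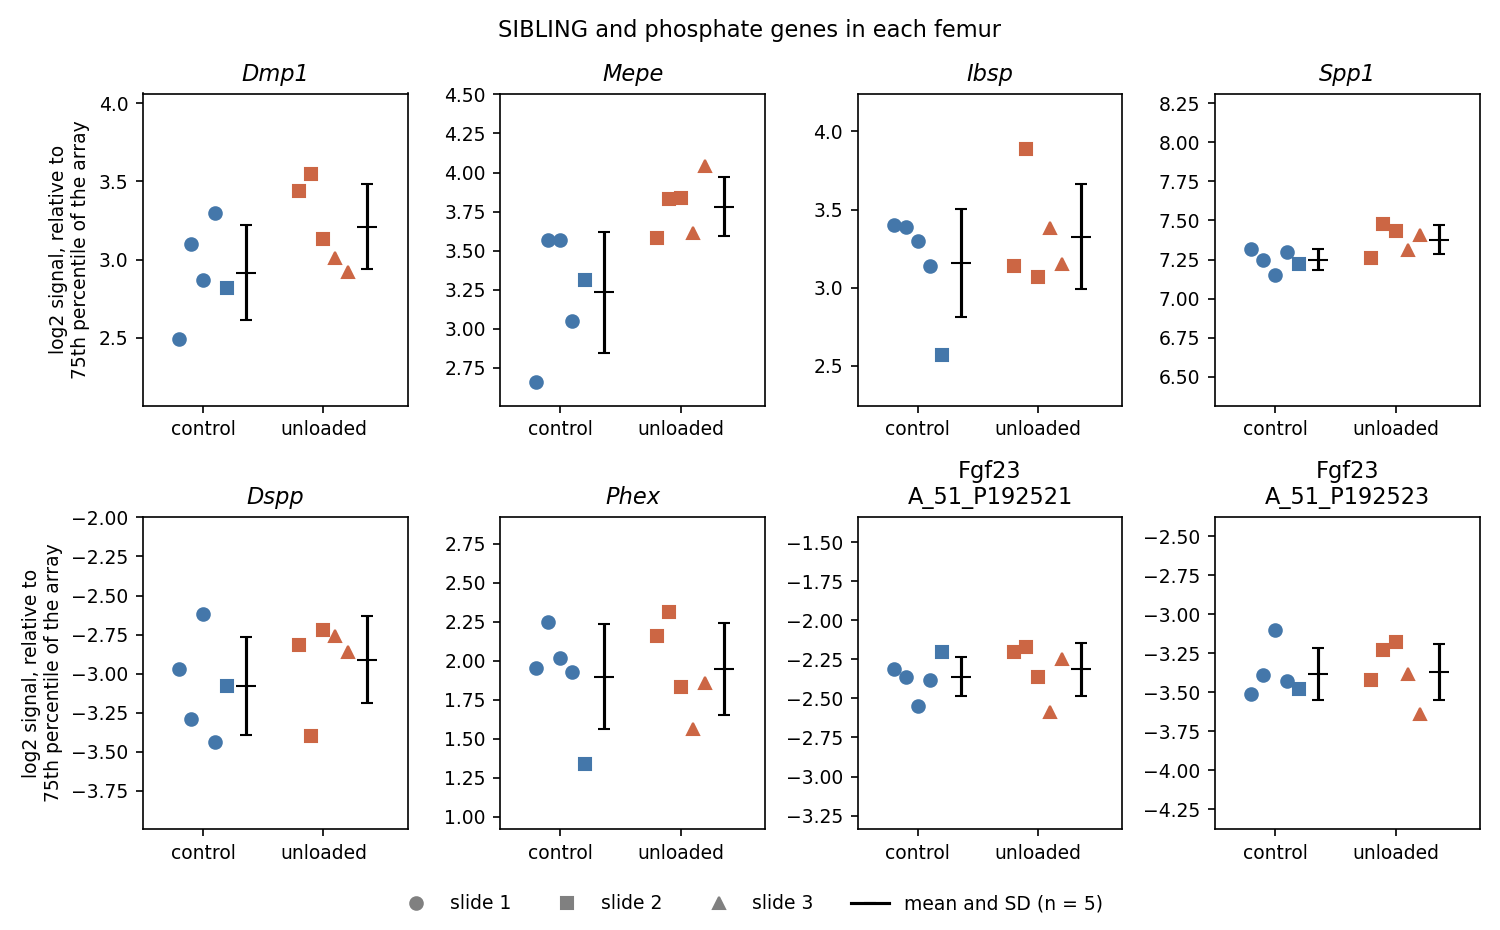
Signal of each member probe in each animal (log2, relative to the array's 75th percentile), with controls in blue, unloaded animals in orange, the slide as the marker shape, and black bars for mean and SD (n = 5). Every panel spans the same number of log2 units, and the Mepe panel is the one in which no unloaded animal lies below a control animal.

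Mepe, the matrix extracellular phosphoglycoprotein of osteocytes and the source of a mineralization-inhibiting peptide, had the largest difference of the 7 genes. Its signal was 2.66, 3.57, 3.57, 3.05 and 3.31 in controls 1 to 5 and 3.58, 3.83, 3.84, 3.61 and 4.04 in unloaded animals 1 to 5. Every unloaded animal lay above every control, but the lowest unloaded animal exceeded the highest control by 0.007, and control 1 lay well below the rest. The means were 3.23 ± 0.39 (SD, n = 5) and 3.78 ± 0.19 (SD, n = 5), a difference of 0.55 (SE 0.17, 95% interval 0.19 to 0.91) or 1.46-fold (1.14 to 1.88). It did not pass the correction over all probes (limma, adjusted p = 0.24), and 2.3% of probes had a smaller p.

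The exact two-sided permutation test gave Mepe p = 0.00794, the smallest that 252 assignments of 5 of 10 animals allow. Groups without overlap occurred in 3.16% of all probes, and in 1.51% with the unloaded group higher. Mepe values overlapped between groups under normexp background correction, with a difference of 0.54, and under median scaling, with 0.45. Without control 1 the difference was 0.41, and without unloaded animal 5, the highest, it was 0.48. On slide 2 the only control stood at 3.31 and the 3 unloaded animals averaged 3.75. With slide as a block the difference was 0.44 (SE 0.33), which was within its error.

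Dmp1, a phosphoprotein that nucleates mineral and holds Fgf23 in check, had the next largest difference. Controls 1 to 5 gave 2.49, 3.10, 2.87, 3.30 and 2.82, and unloaded animals 1 to 5 gave 3.44, 3.55, 3.13, 3.01 and 2.92. All 5 unloaded animals lay above the control mean and 2 of them, animals 1 and 2, above every control, so the groups overlapped. The means were 2.92 ± 0.30 (SD, n = 5) and 3.21 ± 0.27 (SD, n = 5), and the difference of 0.29 (SE 0.16, 95% interval -0.05 to 0.63) was within the spread of the animals (limma, adjusted p = 0.36; exact permutation p = 0.143). As a fold it was 1.22, with an interval of 0.965 to 1.55, and 25% of all probes had a smaller p. Both unloaded animals with the lowest Dmp1, 4 and 5, were those on slide 3. Within slide 2, where control 5 is the only control, the difference was 0.55, from 2.82 in that animal to a mean of 3.37 in 3 unloaded animals. Without control 1, lowest here as for Mepe, it was 0.19.

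Ibsp, bone sialoprotein, binds hydroxyapatite and is made by osteoblasts as they begin to mineralize matrix. Its signal was 3.40, 3.39, 3.30, 3.14 and 2.57 in controls 1 to 5 and 3.14, 3.89, 3.07, 3.38 and 3.15 in unloaded animals 1 to 5. The groups overlapped widely, and the lowest and highest values, control 5 and unloaded animal 2, were both single animals away from their group and both on slide 2. The means of 3.16 ± 0.34 (SD, n = 5) and 3.33 ± 0.34 (SD, n = 5) differed by 0.17 (SE 0.18, 95% interval -0.23 to 0.56; limma, adjusted p = 0.63). Leaving out either of these animals brought the Ibsp difference to 0.02. Within slide 2, where control 5 is the only control, it was 0.79 (limma with slide as a block, adjusted p = 0.904).

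Spp1, osteopontin, is a secreted phosphoprotein that anchors osteoclasts through integrins and slows crystal growth. Controls 1 to 5 gave 7.32, 7.25, 7.15, 7.30 and 7.22 and unloaded animals gave 7.26, 7.48, 7.43, 7.31 and 7.41. The animals lay close together, and 3 of 5 unloaded animals were above every control. The means were 7.25 ± 0.07 (SD, n = 5) and 7.38 ± 0.09 (SD, n = 5), a difference of 0.13 (SE 0.09, 95% interval -0.06 to 0.32) or 1.09-fold. By limma it had an adjusted p of 0.43, and the exact permutation test of this probe alone, not adjusted for other probes, gave p = 0.0476. The probe was spotted 10 times on each array, with an SD between spots of 0.029 to 0.054, and none of the spots was saturated at intensities of 103000 to 145000. With median scaling the difference was 0.03 and with quantile normalization 0.06, so its size rests on the scaling.

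Dspp, the precursor of dentin sialoprotein and dentin phosphoprotein, gave -2.97, -3.29, -2.62, -3.44 and -3.08 in controls 1 to 5 and -2.82, -3.40, -2.72, -2.76 and -2.86 in unloaded animals 1 to 5. Among the unloaded animals 4 lay close together and animal 2 lay far below them, inside the control range. The means of -3.08 ± 0.31 (SD, n = 5) and -2.91 ± 0.28 (SD, n = 5) differed by 0.17 (SE 0.16, 95% interval -0.18 to 0.52; limma, adjusted p = 0.575). The probe was dim, at 62.8 to 139 intensity units, yet well above background on all 10 arrays and 7.55 to 18.2 times the median of the 153 negative-control spots of its array. Without unloaded animal 2 the Dspp difference was 0.29 (limma, adjusted p = 0.226), and under normexp background correction it was 0.02.

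Phex, the endopeptidase lost in X-linked hypophosphatemia, did not differ beyond the spread of the animals. Its signal was 1.95, 2.25, 2.02, 1.93 and 1.34 in controls 1 to 5 and 2.16, 2.31, 1.83, 1.56 and 1.86 in unloaded animals 1 to 5. The groups overlapped almost fully, with control 5 lowest, as for Ibsp, and unloaded animal 2 highest. The means were 1.90 ± 0.34 (SD, n = 5) and 1.94 ± 0.30 (SD, n = 5), a difference of 0.04 (SE 0.17; limma, adjusted p = 0.903). The 95% interval ran from -0.33 to 0.41, a fold of 0.797 to 1.33. Without control 5 the difference was -0.10. Within slide 2, where that animal is the only control, it was 0.76 (SE 0.22; limma with slide as a block, adjusted p = 0.659), with all 3 unloaded animals above it.

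Fgf23, the phosphate-wasting hormone secreted by osteocytes and osteoblasts, was read by 2 probes, and for both the group means lay closer together than the animals within a group. Probe A_51_P192521 gave -2.31, -2.36, -2.55, -2.38 and -2.20 in controls 1 to 5 and -2.20, -2.17, -2.36, -2.59 and -2.25 in unloaded animals 1 to 5. Probe A_51_P192523 gave -3.51, -3.39, -3.10, -3.43 and -3.48 in controls and -3.42, -3.23, -3.18, -3.38 and -3.64 in unloaded animals. The groups overlapped for both, and the animals at the extremes were not the same for the pair. The differences were 0.05 (SE 0.11, 95% interval -0.18 to 0.28; limma, adjusted p = 0.816) and 0.01 (SE 0.11, 95% interval -0.23 to 0.26; adjusted p = 0.956). The upper ends of the 2 intervals are folds of 1.21 and 1.20.

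Both Fgf23 probes were dim. The first lay at 11.6 to 22.5 times the negative-control median of its array and was well above background on 10 arrays, and the second at 4.38 to 13.1 times, well above background on 9 arrays, unloaded animal 5 being the exception. That array also had the highest negative-control median, 12.6 intensity units against 7.12 to 10.9 elsewhere.

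**Figure D2:**
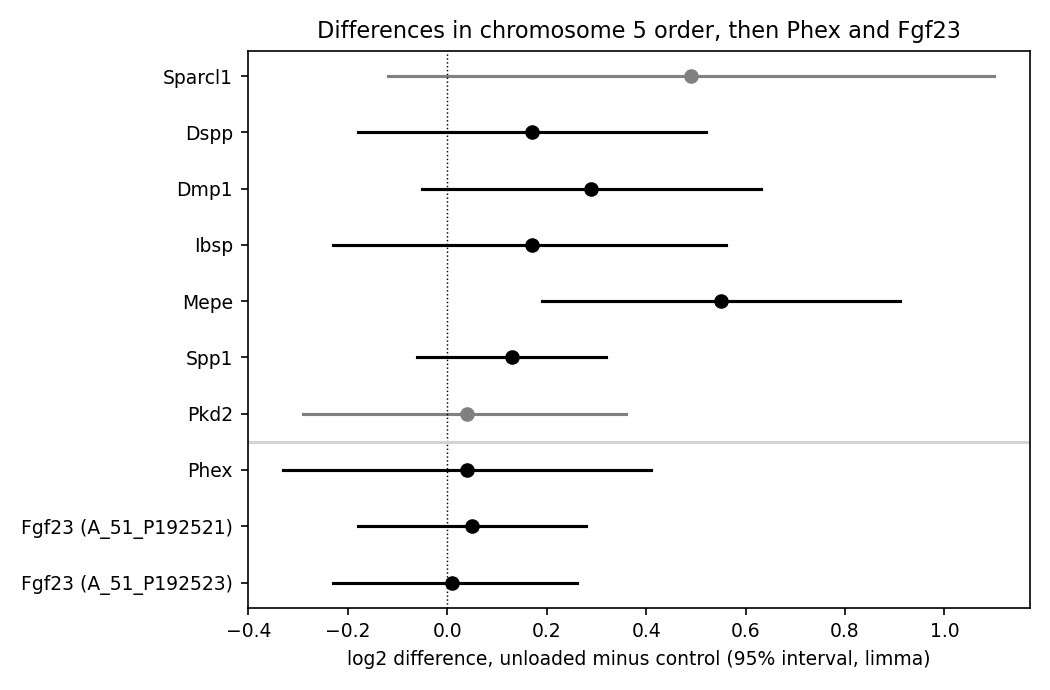
Difference of each member (log2, unloaded minus control, with the 95% interval from limma), with the chromosome 5 genes in their order along the chromosome and the flanking genes Sparcl1 and Pkd2 in grey, then Phex and Fgf23. The Mepe interval, 0.19 to 0.91, is the only one of those drawn that does not cross 0.

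Along chromosome 5 the 5 SIBLING differences were 0.17, 0.29, 0.17, 0.55 and 0.13 from Dspp to Spp1. The flanking gene Sparcl1, a matrix glycoprotein related to Sparc, had 0.49 (SE 0.28, 95% interval -0.12 to 1.10; limma, adjusted p = 0.376). It too was lowest in control 1, at 2.10, and highest in unloaded animal 5, at 4.38, the animals at the extremes for Mepe. Without control 1 its difference was 0.23 and without unloaded animal 5 it was 0.31. Pkd2, the polycystin-2 channel gene on the other side, had 0.04 (SE 0.15, 95% interval -0.29 to 0.36; adjusted p = 0.908). Differences between neighbours were not tested against each other.

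**Figure D3:**
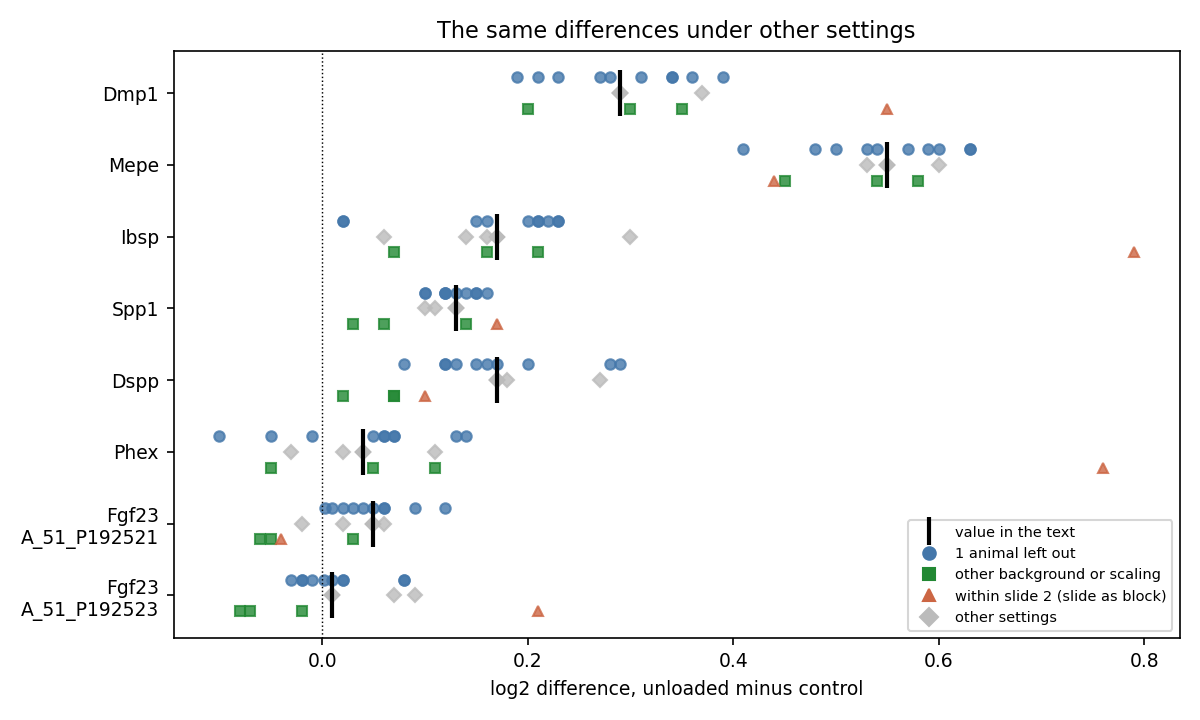
Each member's log2 difference (unloaded minus control) as given in the text (black bar), with each animal left out in turn (blue), with other background correction or scaling (green), within slide 2 (orange) and under the other settings (grey). Mepe stays between 0.41 and 0.63, while Ibsp and Phex reach 0.79 and 0.76 within slide 2 and both Fgf23 probes lie on either side of 0.

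The members did not share their extreme animals evenly. Taking the brighter probe of Fgf23, unloaded animal 2 had the highest signal in 5 of the 7 genes. These were Dmp1, Ibsp, Spp1, Phex and Fgf23, while in Dspp it was second lowest. The same animal had the highest mean in 7 of the 11 pathway and marker lists given below, so this was not particular to the members. Control 5 was lowest in Ibsp and Phex, and control 1 in Dmp1 and Mepe. Without unloaded animal 2, 6 of 8 member differences were positive, and without control 5, also 6 of 8. Relative to the mean of the other controls, control 5 stood at -0.73 for Ibsp, -0.70 for Phex, -0.12 for Dmp1 and 0.10 for Mepe. Its mean over the osteoblast list stood at -0.31 and over the cartilage list at -0.41 in the same way. It was also low over the skeletal muscle list (-0.37) and the adipocyte list (-0.21). Over the osteocyte, osteoclast and macrophage lists it stood at -0.10, -0.01 and 0.01. The part of tissue makeup in the Ibsp and Phex values was not tested.

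Across the 10 animals, 15 of the 21 pairs of members had a positive correlation, with a median r of 0.21, and none passed adjustment over the 21 pairs (smallest adjusted permutation p = 0.477). The closest pair was Ibsp and Phex, with Pearson's r = 0.71 (permutation p = 0.0227) and Spearman's rho = 0.65 (permutation p = 0.0485; adjusted 0.72). Without unloaded animal 2 and control 5, the pair of animals farthest from the median of Ibsp, r was 0.01, so the relation rests on those animals. After group and slide had been removed r was 0.50. Dmp1 and Phex had r = 0.50 (permutation p = 0.147; rho = 0.48, permutation p = 0.167; adjusted 0.693 and 0.72), and 0.56 without the farthest animals, control 1 and unloaded animal 2. Dmp1 and Mepe had r = 0.47 (permutation p = 0.173; rho = 0.38, permutation p = 0.279; adjusted 0.693 and 0.72). Without control 1 and unloaded animal 2, the same 2 animals, Dmp1 and Mepe gave r = -0.25. Dspp had a negative r with every member but Mepe, down to -0.41 with Fgf23 (permutation p = 0.236; rho = -0.33, permutation p = 0.347; adjusted 0.693 and 0.72; r = -0.43 without the farthest animals). In these negative pairs the farthest animals always included unloaded animal 2. Without them Dspp had r = 0.48 with Spp1, -0.07 with Ibsp, -0.09 with Phex and -0.27 with Dmp1.

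**Figure D4:**
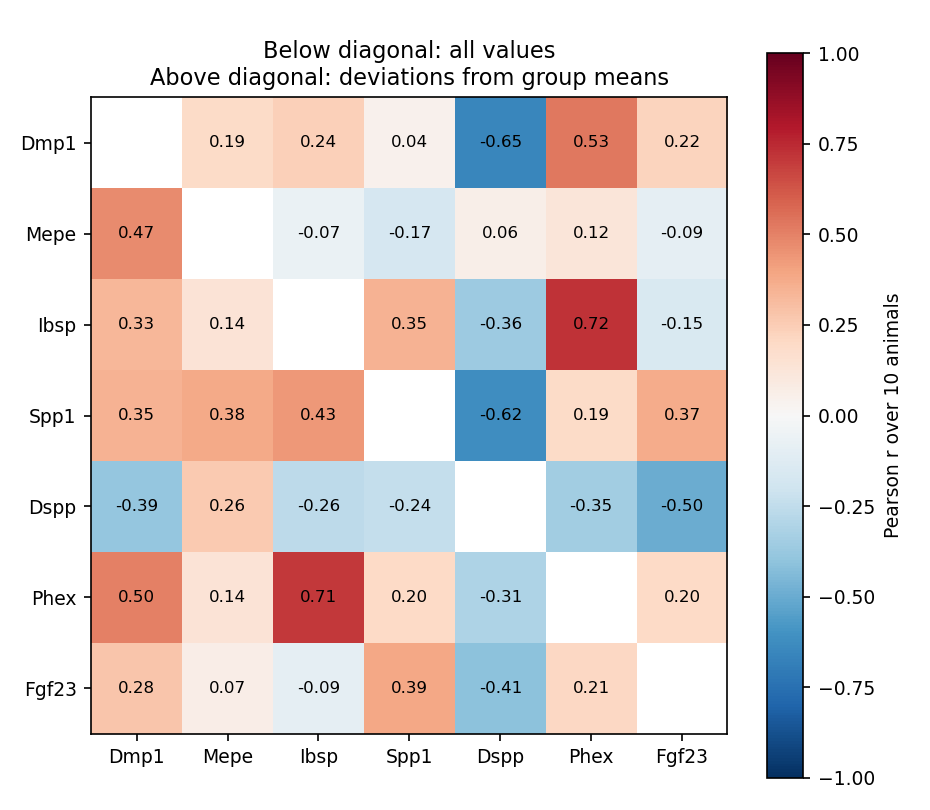
Pearson's r between members over the 10 animals, from all values below the diagonal and from deviations from the group means above it, on a colour scale from -1 (blue) to 1 (red). Ibsp and Phex stand out at 0.71 and 0.72, and the row and column of Dspp are mostly blue.

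For each member the genes with the most similar signal over the 10 arrays, up to 3 a member, were taken from 17664 searched, as a description. Dmp1 had Tns2 (r = 0.95), Col11a2 (0.90) and Adam15 (0.87), Mepe had Neu1 (0.97), Akt1s1 (0.95) and Lmbrd1 (0.93), and Ibsp had Scara3 (0.96) and Cdr2l (0.95). Spp1 had Ocstamp (0.95), Slc25a26 (0.94) and Olfr339 (0.94), and Phex had Bicc1 (0.95), Zmat3 (0.94) and Grb10 (0.93). The dim members had lower values, with Cldn2 (0.88), Srsf12 (0.88) and Egflam (0.87) for Dspp and Aste1 (0.91), Dqx1 (0.88) and Pdilt (0.87) for Fgf23. The members themselves were left out of the genes searched.

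Around Fgf23, 20 of 21 genes of the phosphate and FGF23 axis were tested, Cyp24a1 being too dim, and none was called in either direction. Differences were positive in 15 and negative in 5, with a median of 0.12 against 0.05 over all genes. Of the 20, 4 had an unadjusted p below 0.05, all with higher signal in unloaded animals, where 10.2% of all probes did. With median scaling 0 of the 20 had a higher signal at that p and 1, Xpr1, a lower one, and with quantile normalization or normexp 1 did, Furin, with a higher signal. The 4 genes were Casr, the calcium-sensing receptor (0.28, SE 0.12; limma, adjusted p = 0.292), Furin, a protease that can cleave Fgf23 (0.22, SE 0.10; adjusted p = 0.304), and the sodium-phosphate cotransporters Slc34a1 (0.22, SE 0.10; adjusted p = 0.304) and Slc34a2 (0.19, SE 0.08; adjusted p = 0.301). Slc34a2 was the only one of them whose groups did not overlap, from -1.51 to -1.43 in controls and -1.41 to -1.19 in unloaded animals, and 1 of its 2 probes had a positive difference. Its groups overlapped with normexp (0.14), quantile normalization (0.09) and median scaling (0.09), while those of Furin lay apart with quantile normalization (0.28). Of all probes, 1.51% had the unloaded group higher without overlap.

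The direct partners of Fgf23 gave no call either. Kl, the co-receptor klotho, had a difference of 0.31 (SE 0.18; limma, adjusted p = 0.388) at a dim signal, which was 0.15 with normexp, 0.18 with array weights and 0.17 without unloaded animal 2, and the receptor Fgfr1 had 0.04 (SE 0.11; adjusted p = 0.84). Galnt3, the glycosyltransferase that shields Fgf23 from cleavage, had -0.10 (SE 0.11; adjusted p = 0.648). Vdr, the vitamin D receptor, had 0.14 (SE 0.12; adjusted p = 0.549).

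A list of 18 genes held kinases, proteases and receptors of SIBLING proteins, the phosphatase Acp5 and the transglutaminase Tgm2. All 18 were tested, none was called and none had an unadjusted p below 0.05 in limma. Differences were positive in 11 and negative in 7, with a median of 0.02. Fam20c, the Golgi kinase that phosphorylates SIBLING proteins, had 0.06 (SE 0.15, limma adjusted p = 0.844). Bmp1, which cleaves Dmp1 and Dspp, had -0.06 (SE 0.17, limma adjusted p = 0.848). The 4 smallest p belonged to the integrin subunit Itgb5 (0.20, SE 0.10; adjusted p = 0.336), the osteopontin and hyaluronan receptor Cd44 (-0.28, SE 0.15; adjusted p = 0.349), the protease Tll2 (0.25, SE 0.15; adjusted p = 0.381) and Itgb1 (-0.22, SE 0.13; adjusted p = 0.392). For Cd44 and for Itgb1, 2 of 3 probes had the sign given. Without unloaded animal 5, the array that stood apart, Cd44 had -0.12 and Tll2 0.15, and without unloaded animal 2 Tll2 had 0.38. With median scaling Itgb5 had 0.11 and Cd44 an unadjusted p below 0.05. Itgav and Itgb3, which together form the main osteopontin receptor of osteoclasts, had -0.03 (SE 0.13) and 0.02 (SE 0.11). For Itgav, 2 of 5 probes had the sign given.

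A list of 9 genes held other secretory calcium-binding phosphoproteins, relatives of the SIBLING genes, and the proteases Mmp20 and Klk4. Of these 9, 7 were tested, Klk4 (-0.01) among them, and none was called. The median difference of the 7 was 0.09, and 1 gene, Amelx, had an unadjusted p below 0.05 in limma. The 4 smallest p were those of Sparcl1 (given above) and of the enamel matrix genes Amelx (0.24, SE 0.11; limma, adjusted p = 0.308), Amtn (0.20, SE 0.10; adjusted p = 0.346) and Enam (0.09, SE 0.15; adjusted p = 0.766). With median scaling Amelx had 0.14 and Amtn 0.10, and with normexp Amtn, whose signal was dim, had 0.07. Of 9 tested transcription factors known to act on SIBLING genes none was called or had an unadjusted p below 0.05, with 5 positive and 4 negative differences and a median of 0.01. Runx2, the osteoblast master regulator, had 0.01 (SE 0.11), and Sp7 (osterix) had -0.10 (SE 0.16). The smallest p were those of Msx2 (0.19, SE 0.09; adjusted p = 0.332), Dlx5 (0.15, SE 0.09; adjusted p = 0.406) and Mef2c (-0.21, SE 0.15; adjusted p = 0.461). Mef2c had -0.09 without unloaded animal 5, and 1 of its 2 probes had a negative difference. With median scaling Msx2 had 0.09 and Dlx5 0.05, and with normexp Msx2, whose signal was dim, had 0.05.

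**Figure D5:**
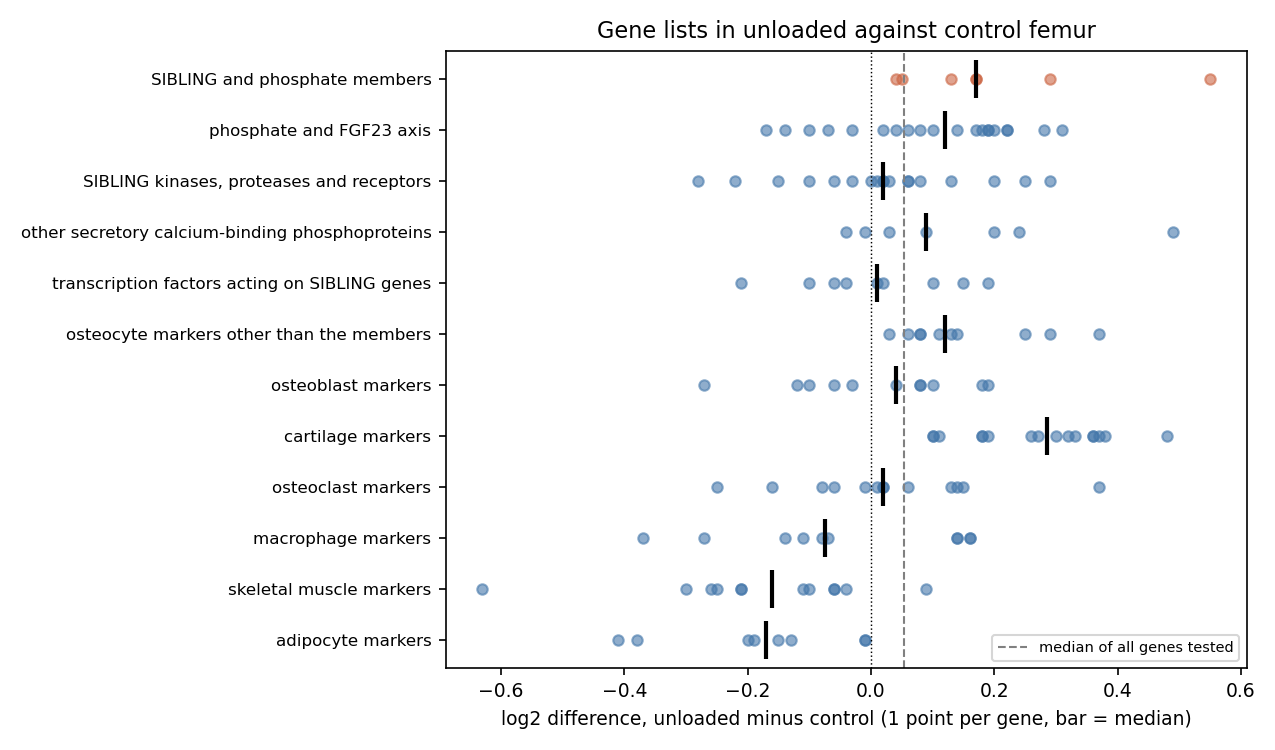
Log2 difference (unloaded minus control) of each gene of the members and of 11 gene lists, with 1 point per gene, a black bar at the list's median and a dashed line at the median of all genes, 0.05. The medians run from -0.17 (adipocyte markers) to 0.28 (cartilage markers), with the 7 members at 0.17.

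Markers of the cells that make SIBLING proteins were read beside the members. All 10 further osteocyte markers were well above background on every array and had positive differences, with a median of 0.12 against the members' 0.17, and none was called. With quantile normalization 8 of the 10 were positive, with a median of 0.09, and with median scaling 6 were, with a median of 0.02. These counts use the brightest probe of each gene. Of all tested probes, 1 of 2 for Dkk1 and 3 of 4 for Ptprz1 had a positive difference. Their summed level, relative to the 75th percentile, was 341 to 377 in controls and 341 to 399 in unloaded animals. Most of that sum was Ptprz1, whose mean log2 signal was 8.42 in controls and 8.48 in unloaded animals. Sost, which encodes sclerostin, had 0.03 (SE 0.14; limma, adjusted p = 0.904). Fbln7, a matrix protein, and Slc8a3, a sodium-calcium exchanger, had an unadjusted p below 0.05, at 0.37 (SE 0.16; adjusted p = 0.293) and 0.29 (SE 0.12; adjusted p = 0.283). With median scaling neither did.

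The 11 osteoblast markers on the array gave 6 positive and 5 negative differences with a median of 0.04, and summed levels of 496 to 566 in controls and 436 to 634 in unloaded animals. All 16 cartilage markers were positive, with a median of 0.28 and summed levels of 123 to 215 and 143 to 252. For osteoclasts, which carry integrin receptors for Spp1, 8 of 13 markers were positive with a median of 0.02 and summed levels of 117 to 133 and 106 to 179. The 10 macrophage markers had a median of -0.08 (44.7 to 62.6 and 40.6 to 54.1), the 12 skeletal muscle markers -0.16 (207 to 501 and 260 to 502) and the 8 adipocyte markers -0.17 (46.7 to 109 and 52.6 to 99.3). In limma none of these genes was called. An unadjusted p below 0.05 was found for Snorc and Col9a3 among cartilage genes and Ocstamp among osteoclast genes, with positive differences, and for Mpeg1 and Mrc1 among macrophage genes and Myh2 among muscle genes, with negative ones. Of all probes 16.1% had such a p. With median scaling Mpeg1, Mrc1 and Myh2 still had one, and no cartilage or osteoclast marker did. With quantile normalization 6 cartilage markers did, and Myh2 did not. Every gene tested was well above background on all 10 arrays, no marker was at 0, and the part of cell makeup in the member values was not tested.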

How the data were processed

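Cy3-labelled RNA was read on 1-colour Agilent arrays of design 014868. The deposited scanner files hold each spot's linear intensity, obtained by the authors with Agilent Feature Extraction 9.1.3.1 (protocol GE1-v5_91_0806), per the file headers. A deposited series matrix holds the same intensity rounded to 3 significant digits (ratios 0.995 to 1.005, column medians 253 to 335) and served as an alternative.

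Outlier spots (97) were left out, log2 intensity was averaged over the spots of each probe, and each array's 75th percentile was subtracted. Testing required a probe to be well above background on at least 4 of 5 arrays in either group and to have 3 or more values in both. The test was made with limma 3.58.1 in R 4.3.3, adjusted by Benjamini-Hochberg over 38629 probes, with an adjusted p below 0.05 called. The brightest tested probe stood for a gene. Beside it stood exact permutation tests and, for pairs of members, permutation with 100000 resamples. The R package data.table (version 1.17.8) read the files, and matplotlib 3.10.9 drew the figures. The fit was tested on simulated data.

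Probes were named through RefSeq gene names of assembly GRCm38.p6. The genes named are all members, up to 4 genes by smallest p of each pathway list, Fam20c, Bmp1, Furin, Galnt3, Kl, Fgfr1, Vdr, Itgav, Itgb3, Cd44, Runx2, Sp7 and Sost whatever their result, and the 3 genes most similar to each member; 2 genes that this rule takes are not reported here. Other marker genes with an unadjusted p below 0.05 were named after their values were seen. Members and lists were chosen with earlier results of these data known. The labels describe separate animals, and 5 arrays per group limit the precision. Alternatives covered background correction, scaling, the filter, the series matrix, slide, replicate number, body weight, array weights, variance model, threshold and each animal left out.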

Additional observations from a re-analysis of the deposited data

Results flagged for a closer look

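Within the unloaded group, Dspp had 1 animal far from the others. Unloaded animal 2 gave -3.40, while the other 4 lay between -2.86 and -2.72, so that the gap to its nearest neighbour was 0.795 of the group's whole range, above Dixon's 95% critical value of 0.71 for 5 samples. It was the only such case among 16 groups of values (8 probes in 2 groups), where chance gives about 1 in 20. The same animal had the highest signal of Dmp1, Ibsp, Spp1, Phex and Fgf23, and the highest mean in 7 of the 11 gene lists.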

How the results depend on the processing

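No member probe and no listed gene was called under any alternative run, whatever the background correction, scaling, filter, source, slide, covariate, weights, variance model or threshold, and with any 1 animal left out. No pair of members was called in the alternatives run for pairs, which were quantile normalization, deviations from group means, deviations from group and slide, and each animal left out. The count of called probes over the array was 1, and it was 3 with slide as a fixed block, 0 with body weight as a covariate, 3 with a variance trend and robust fit, and 1 to 2 with an animal left out (2 without control 2). The labels number the animals within each group. Animals of the same number did not deviate together (r = -0.05, 0.18, -0.11, -0.14 and 0.07, with 1 of 5 closest to its own number). A pairing with little effect on signal would not show in this check, and the animals were treated as unpaired. With the replicate block the count was 1 and no member was called.

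The differences of Mepe, Dmp1, Ibsp, Spp1 and Dspp kept their direction under every alternative run. Fgf23 turned to -0.06 and -0.07 (quantile normalization), -0.05 and -0.08 (median scaling) for A_51_P192521 and A_51_P192523, the first also to -0.04 with slide as a block and -0.02 with body weight, the second to -0.02 with normexp. With an animal left out they ran from 0.0027 to 0.12 and from -0.03 to 0.08. Phex turned to -0.05 with median scaling and -0.03 with array weights, and ran from -0.10 to 0.14 with an animal left out.

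Of 769 single-gene values under the alternatives, 711 kept their direction and 58 reversed. For genes that are no members, median scaling gave Enam -0.0059, Fam20c -0.04, Fgfr1 -0.05, Itgb3 -0.07, Runx2 -0.09 and Sost -0.06, and quantile normalization gave Enam -0.02 and Itgav 0.03. Slide as a block gave Enam -0.16, Itgav 0.14, Itgb3 -0.11, Sost -0.34, Itgb1 0.04, Mef2c 0.06, Bmp1 0.49, Galnt3 0.19 and Sp7 0.50. Body weight gave Enam -0.06, Bmp1 0.07, Runx2 -0.06 and Sost -0.05, and array weights gave Runx2 -0.04. With an animal left out the lowest and highest values were -0.0046 and 0.20 for Enam, -0.07 and 0.08 for Itgav, -0.05 and 0.18 for Fam20c, -0.01 and 0.09 for Fgfr1, -0.04 and 0.09 for both Itgb3 and Runx2, -0.05 and 0.12 for Sost, -0.20 and 0.02 for Bmp1 and -0.22 and 0.01 for Sp7. The cause of these reversals was not tested. Slide as a block rests on slide 2 alone, the only slide that holds both groups, with 1 control. Low signal over background limits Dspp and Fgf23, and Kl, Slc34a1, Msx2 and Amtn lay at similarly low levels.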
